A study of Rattus norvegicus with 100 samples.

Results

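The SLC25 family is the set of carrier proteins that move metabolites across the inner mitochondrial membrane. Its members were taken as every gene whose symbol begins with Slc25a, without Slc25a20, together with Ucp2 and Ucp3. Each gene was read from its probe set with a single symbol and the highest mean over the arrays. Of 38 such genes, 31 had a log2 value above 5 in at least 3 of the 100 arrays and are reported here, out of 8843 genes that passed the same filter. The other 7, Slc25a18, Slc25a27, Slc25a31, Slc25a35, Slc25a41, Slc25a45 and Slc25a53, were above 5 in no array. Slc25a2, Slc25a5, Slc25a6, Slc25a26, Slc25a32, Slc25a34, Slc25a40, Slc25a43, Slc25a47 and Slc25a48 had no probe set of their own and were not analysed here.

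Carriers exchange or import nucleotides, cofactors, carboxylates, amino acids, iron and phosphate, so that fuel use in the matrix can be tied to synthesis in the cytosol. In hepatocytes they serve fatty acid oxidation, the malate-aspartate shuttle, citrate export for lipid synthesis and the urea cycle. GW7647 is a synthetic agonist of PPARα, a nuclear receptor that switches on fatty acid oxidation in liver. The carnitine carrier Slc25a20, left out of the members, and the pyruvate dehydrogenase kinase gene Pdk4 are known targets of that receptor and served as a check of the agent. At 1 µM and 72 h Slc25a20 was 3.58-fold and Pdk4 17.6-fold above 0 µM (limma, adjusted p = 1.16e-21 and 7.70e-13).

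Primary hepatocytes of 4 rats (Rs627, Rs628, Rs631 and Rs632) were exposed to GW7647 at 0.001, 0.01, 0.1, 1 or 10 µM, or to none (0 µM), for 2, 6, 12, 24 or 72 h. Each array measured 1 culture of 1 rat, and the 30 groups held 2 to 4 arrays. All cultures stood on rat collagen IV with Geltrex, in William E medium. The strain, sex and age of the animals, and whether the 0 µM cultures received solvent, are not given in the labels. Values are log2 intensities. A change is the difference of group means from a linear model over all 100 arrays, given with its standard error, and a gene was called at a limma p of under 0.05 after Benjamini-Hochberg adjustment over the 8843 genes. A probe set's value cannot be set against that of another probe set, so only changes are compared between genes.

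The arrays were of hepatocytes by their markers: the 6 measured hepatocyte markers, Alb among them, were above 5 in all 100 arrays. Pecam1, Vwf, Stab2 and Kdr of endothelium, Cd163, Clec4f and Csf1r of macrophages, and Col1a1, Des and Lrat of stellate cells were above 5 in none, whereas Cd68 of macrophages was above 5 in 24, Acta2 and Col1a2 of stellate cells in 97 and 83, and the bile duct markers Epcam, Krt19, Spp1 and Krt7 in 100, 36, 34 and 23. The summed level of the 6 hepatocyte markers at 72 h spanned 12.35 to 12.51 at 1 µM against 12.70 to 12.80 at 0 µM (log2 of the mean linear value). The 4 bile duct markers spanned 7.65 to 8.32 at 1 µM against 7.83 to 9.30 at 0 µM, and the 5 stellate cell markers 4.02 to 4.29 at 1 µM against 4.47 to 4.83 at 0 µM. Fewer cells of a type and less RNA per cell cannot be told apart in such cultures, and the part of these shifts in the results was not tested. The 75th percentile of an array ran from 6.42 to 7.27 and was below 6.6 in 5 arrays, referred to as those of low signal. These were 1 array of Rs631 at 2 h (0.1 µM), 1 of Rs627 at 6 h (10 µM), and at 24 h the arrays of Rs631 at 1 and 10 µM and of Rs632 at 1 µM. At 12 h and 0 µM the labels of Rs627 and Rs628 may be exchanged, and results of that group were also computed without both arrays. That left 1 array in the group, that of Rs631.

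Promoters are shown for the carriers called higher at both 1 and 10 µM at 24 h. Ucp2 and Ucp3 met this rule after passing the filter only through cultures with the agent. RefSeq's promoter table (build GRCr8) held windows of 250 bases before to 50 after the start of 26 of the 31 carriers, Slc25a30, which also met that rule, not among them. The 250 bases before the start of the other 4 follow, each 5′ to 3′ in the direction of its gene. Capitals mark AGGTCA, the hexamer from which PPARα-RXR elements are built, searched on both strands.
Slc25a42, chr16:19247724-19247973, plus strand: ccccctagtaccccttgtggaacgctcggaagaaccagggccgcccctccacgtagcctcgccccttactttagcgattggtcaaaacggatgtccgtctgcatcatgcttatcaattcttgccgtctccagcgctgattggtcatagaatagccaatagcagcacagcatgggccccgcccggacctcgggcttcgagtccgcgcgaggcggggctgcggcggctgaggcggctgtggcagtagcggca
Slc25a13, chr4:35328361-35328610, minus strand: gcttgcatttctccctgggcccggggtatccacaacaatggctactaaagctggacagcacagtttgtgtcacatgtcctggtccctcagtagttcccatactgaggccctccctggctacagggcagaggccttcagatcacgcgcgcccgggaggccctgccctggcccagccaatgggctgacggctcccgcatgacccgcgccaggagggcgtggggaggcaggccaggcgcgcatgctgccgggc
Ucp2, chr1:164251123-164251372, plus strand: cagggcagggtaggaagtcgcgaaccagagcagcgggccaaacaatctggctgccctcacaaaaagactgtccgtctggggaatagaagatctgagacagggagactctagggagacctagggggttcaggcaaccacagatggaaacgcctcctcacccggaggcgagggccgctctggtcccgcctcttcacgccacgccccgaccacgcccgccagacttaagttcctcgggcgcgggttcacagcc
Ucp3, chr1:164227660-164227909, plus strand: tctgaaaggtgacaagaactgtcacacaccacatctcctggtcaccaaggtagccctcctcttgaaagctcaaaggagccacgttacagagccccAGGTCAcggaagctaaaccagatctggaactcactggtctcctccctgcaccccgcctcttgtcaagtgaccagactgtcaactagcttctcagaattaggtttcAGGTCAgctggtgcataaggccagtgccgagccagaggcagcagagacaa
Among the 4, only Ucp3 held the hexamer, at 2 places. Slc25a16 and Slc25a39 held it too, so 3 of 26 carrier windows had it, against 16.2% of all 33469 windows. The full element of the direct repeat type, AGGTCANAGGTCA, was in none of the 26 and in 0.0538% of all windows. Its looser form AGGNCANAGGNCA, which includes the stricter one, was in none of the 26 and in 0.415% of all. Ucp3 and Ucp2 are neighbours on chromosome 1, with 10.5 kb between them.

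Read over concentrations and times, the calls among carriers came late, at 0.1 µM and above, and ran both ways. Of the 31, 17 were called in at least 1 of the 25 comparisons of a concentration with 0 µM of the same time, 11 of them always higher and 6 always lower. The 61 calls comprised 47 rises and 14 falls. Slc25a42 alone made 10 of the rises, and Slc25a13 and Slc25a30 made 8 each. Ucp2 made 5 and Ucp3 made 4. Both passed the filter only through cultures with the agent, so their calls, which these totals include, are not evidence of a response. The other 14 carriers were called in none of the 25.

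At 0.001 µM no carrier was called at any time, as was true of 0% of all genes. At 0.01 µM none was called either, with 0.0113%, 0%, 0.0339%, 0.136% and 0.418% of all genes called at 2, 6, 12, 24 and 72 h. At 0.1 µM the counts were 0, 0, 1, 3 and 2 carriers at these times, where 0.192%, 0.916%, 1.55%, 4.32% and 8.82% of all genes were called. At 1 µM they were 0, 2, 3, 9 and 13, where the shares of all genes were 0.373%, 2.04%, 5.41%, 29.6% and 26.8%. At 10 µM they were 0, 1, 4, 9 and 14, where the shares were 1.02%, 4.30%, 7.95%, 17.1% and 28.0%. At an unadjusted p under 0.05 limma gave 0 carriers at each time at 0.001 µM, and 0, 0, 0, 1 and 2 at 0.01 µM from 2 to 72 h. Where 0 were called at higher concentrations, the unadjusted count was 0 at 2 h and 2 at 6 h for 0.1 µM, and at 2 h it was 3 for 1 µM and 2 for 10 µM. The 9 of 31 at 1 µM and 24 h (29.0%) thus stood at the share of all genes, and the 13 of 31 at 72 h (41.9%) above it. Both counts include Ucp2 and Ucp3, so the 13 are not evidence of an excess among carriers.

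By direction, rises and falls were close in number at 1 µM and 24 h. Rises were more at 10 µM and 24 h and at both concentrations at 72 h, with Ucp2 and Ucp3 counted. At 24 h, 5 carriers rose at 1 µM and 4 fell, where 7.06% of all genes rose and 22.6% fell. With a term for each rat 6 rose and 7 fell there, and without Rs628 the count was 5 and 5. Shares of all genes under these settings are not given, so these counts describe the carriers alone. At 72 h, 10 rose at 1 µM and 3 fell, where 11.3% rose and 15.5% fell. At 10 µM, 6 rose and 3 fell at 24 h (all genes 6.43% and 10.7%), and 11 rose and 3 fell at 72 h (12.5% and 15.6%). The median change over the 31 carriers at 1 µM was 0.07 at 24 h and 0.09 at 72 h, beside -0.23 and -0.06 over all genes tested. The rises at 24 and 72 h include Ucp2 and Ucp3, which passed the filter only through cultures with the agent and so had to differ. These shares describe the list and were not tested. The 75th percentile at 24 h averaged 6.69 ± 0.26 at 1 µM, against 6.99 ± 0.11 at 0 µM (SD, n = 4 and 3), and 7 carriers were called there without the arrays of low signal. The share of all genes without those arrays is not given. At 72 h the 3′ minus 5′ difference of the actin probe sets averaged 1.97 at 1 µM, against 1.66 at 0 µM, and its part in the results was not tested.

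**Figure D1:**
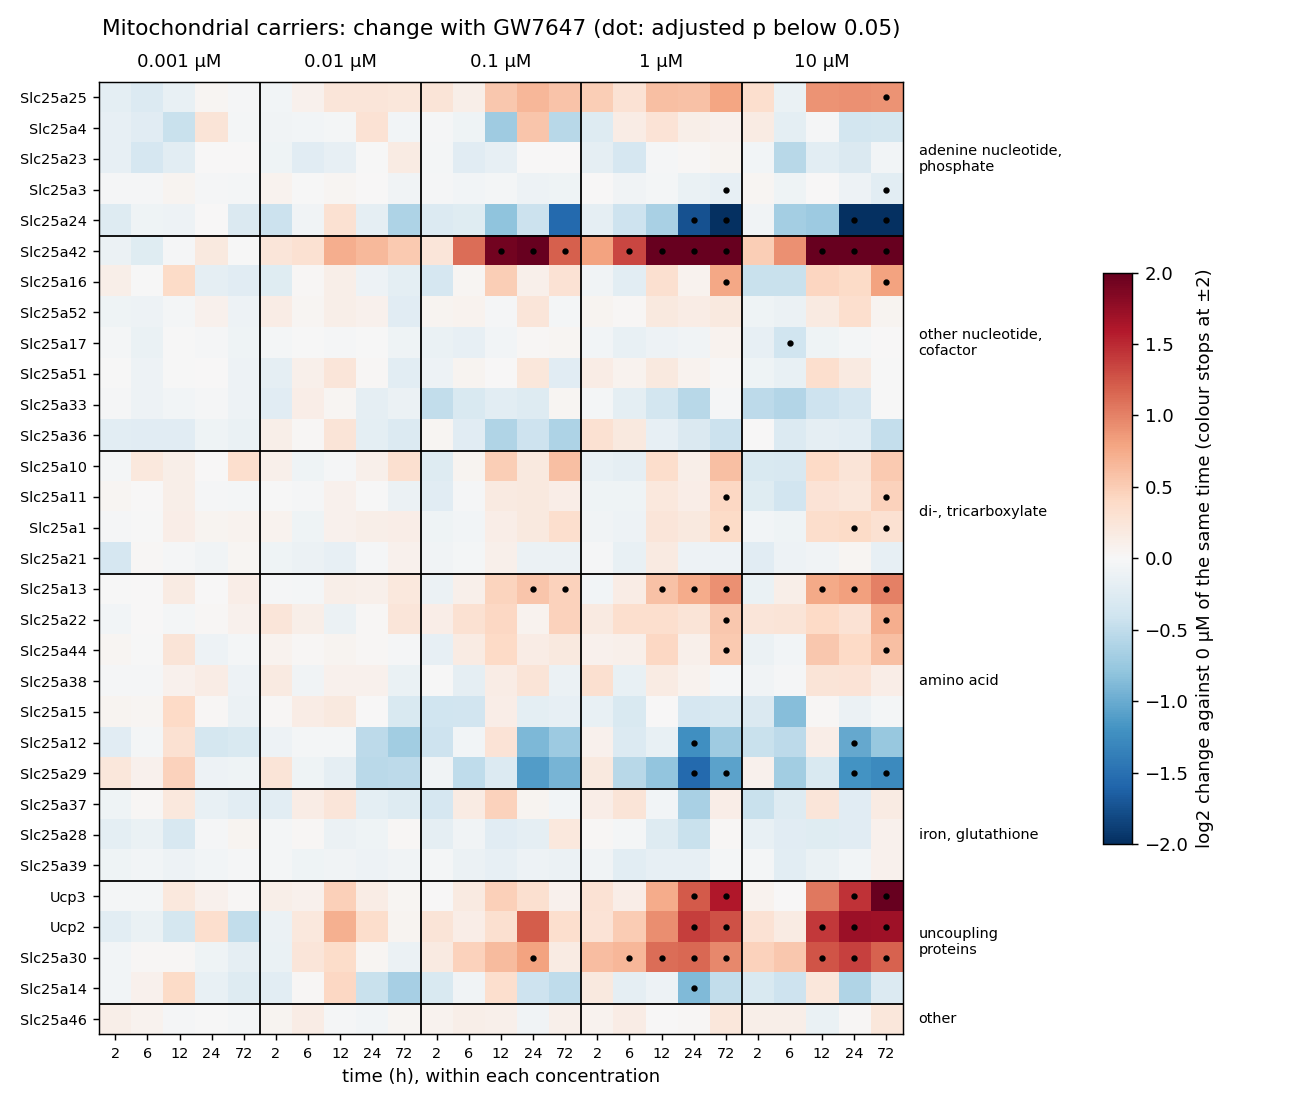
Log2 change of the 31 carriers (vertical, grouped by substrate) against 0 µM of the same time, for 5 concentrations and 5 times each (horizontal), with a dot where the adjusted p was below 0.05. Dots are absent at 0.001 and 0.01 µM, and Slc25a42 has 10 of the 61.

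Averaged over the 5 times, 0 carriers were called at 0.001 µM (0% of all genes) and 0 at 0.01 µM (0.690%), with 0 and 1 at an unadjusted p under 0.05. At 0.1 µM, 4 rose and 1 fell, where 14.3% of all genes were called. At 1 µM, 9 rose and 5 fell (35.4% of all genes), and at 10 µM, 9 rose and 6 fell (39.4%). At 10 µM the split was 9 and 10 with a term for each rat, and 14 and 2 without the arrays at repeated plate positions, with no shares of all genes given for these settings. The 9 that rose were the same at both concentrations: Slc25a1, Slc25a13, Slc25a22, Slc25a25, Slc25a30, Slc25a42, Slc25a44, Ucp2 and Ucp3. The filter fixed a difference for Ucp2 and Ucp3, so their place in this list is not evidence of a rise. Between 10 and 1 µM, averaged over the times, no carrier and 0% of all genes differed by limma, with 1 carrier, Slc25a17, at an unadjusted p under 0.05 (0.0413).

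When the model also held a term for each rat, more carriers passed at several points. At 0.1 µM there were then 1, 3, 5 and 9 at 6, 12, 24 and 72 h, against 1.73%, 3.34%, 12.9% and 25.3% of all genes, and 14 averaged over the times (28.4%), of which 6 rose and 8 fell. At 1 µM and 12 h there were 5 (11.3%), and at 10 µM there were 7 at 6 h (14.5%) and 9 at 12 h (16.5%). Averaged over the times, Slc25a42 alone then passed at 0.01 µM (1.88% of all genes, adjusted p = 0.0143).

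Slc25a42, the carrier that brings coenzyme A into the matrix, had the largest log2 rise among the 31 at 72 h. At 72 h its log2 values at 1 µM were 8.17, 8.10, 6.96 and 7.77 in Rs627, Rs628, Rs631 and Rs632, against 5.04, 4.84, 5.21 and 4.92 at 0 µM. All 4 treated arrays lay above all 4 at 0 µM, with Rs631 the lowest of the treated. The rise was at least 6.45-fold once values below the floor of 5 were raised to it (log2 change 2.75 ± 0.30, limma adjusted p = 1.31e-11, higher in 4 of 4 rats). It grew over the times, from a log2 change of 0.80 ± 0.35 at 2 h, which did not pass (adjusted p = 1), through 1.34 ± 0.30 at 6 h and 2.70 ± 0.33 at 12 h to 2.87 ± 0.33 at 24 h. The call at 6 h was lost without Rs627 (0.128) or Rs632 (0.0766). At 10 µM the log2 change reached 3.06 ± 0.33 at 72 h.

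The dose series of Slc25a42 at 72 h ran through log2 means of 5.00 ± 0.16 at 0 µM, 5.00 ± 0.51 at 0.001 µM, 5.53 ± 0.31 at 0.01 µM, 6.19 ± 0.94 at 0.1 µM, 7.75 ± 0.55 at 1 µM and 8.06 ± 0.09 at 10 µM (SD, n = 4, 4, 4, 3, 4 and 3). The 0.1 and 10 µM groups held no array of Rs627, so these means do not hold the same rats. At 0.1 µM the arrays were split, at 6.85 in Rs628 and 6.61 in Rs632 but 5.12 in Rs631, which lay within the 0 µM range. That rise of 1.19 ± 0.33 passed (adjusted p = 0.0117) but had a highest adjusted p of 0.276 when 1 rat was left out. At 24 h and 0.1 µM the rise was larger, at 2.27 ± 0.35. The change at 1 µM was greater at 72 h than at 2 h by 1.95 ± 0.46 (adjusted p = 0.00260), which was lost without Rs632 (0.0645).

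Slc25a16, a carrier also linked to coenzyme A, was called at 72 h alone. At 72 h its values at 1 µM were 8.93, 8.64, 8.39 and 8.85, in the same order of rats, against 7.85, 7.55, 8.13 and 8.19 at 0 µM, with no overlap between the groups. It rose 1.71-fold (0.77 ± 0.26, limma adjusted p = 0.0217), and the call was lost without Rs627, Rs628 or Rs632 (adjusted p of 0.119, 0.0812 and 0.0707). At 24 h and 1 µM the change of Slc25a16 was 0.07 ± 0.29.

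The remaining nucleotide and cofactor carriers made few calls. Of 7 in the list, Slc25a42 and Slc25a16 rose at 1 µM and 72 h, where 11.3% of all genes rose, and the median change was 0.08. Slc25a17, a peroxisomal carrier of coenzyme A and other cofactors, fell at 10 µM and 6 h. Its values there were 8.44 in Rs627, 9.07 in Rs631 and 8.97 in Rs632, against 9.11, 9.17 and 9.26 for the same rats and 9.38 for Rs628 at 0 µM. The 3 treated arrays lay below all at 0 µM, the lowest by far being Rs627, the array of low signal. The change of -0.40 ± 0.09 (adjusted p = 0.00141) was lost without Rs627 (adjusted p = 0.408). Slc25a33 and Slc25a36 carry pyrimidine nucleotides, and Slc25a51 and Slc25a52 carry NAD in human cells. None of these 4 was called in any of the 25 comparisons, while Slc25a33 fell by 0.37 ± 0.12 at 10 µM averaged over the times (adjusted p = 0.0122, and 0.0794 without Rs628 and 0.136 without Rs632).

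**Figure D2:**
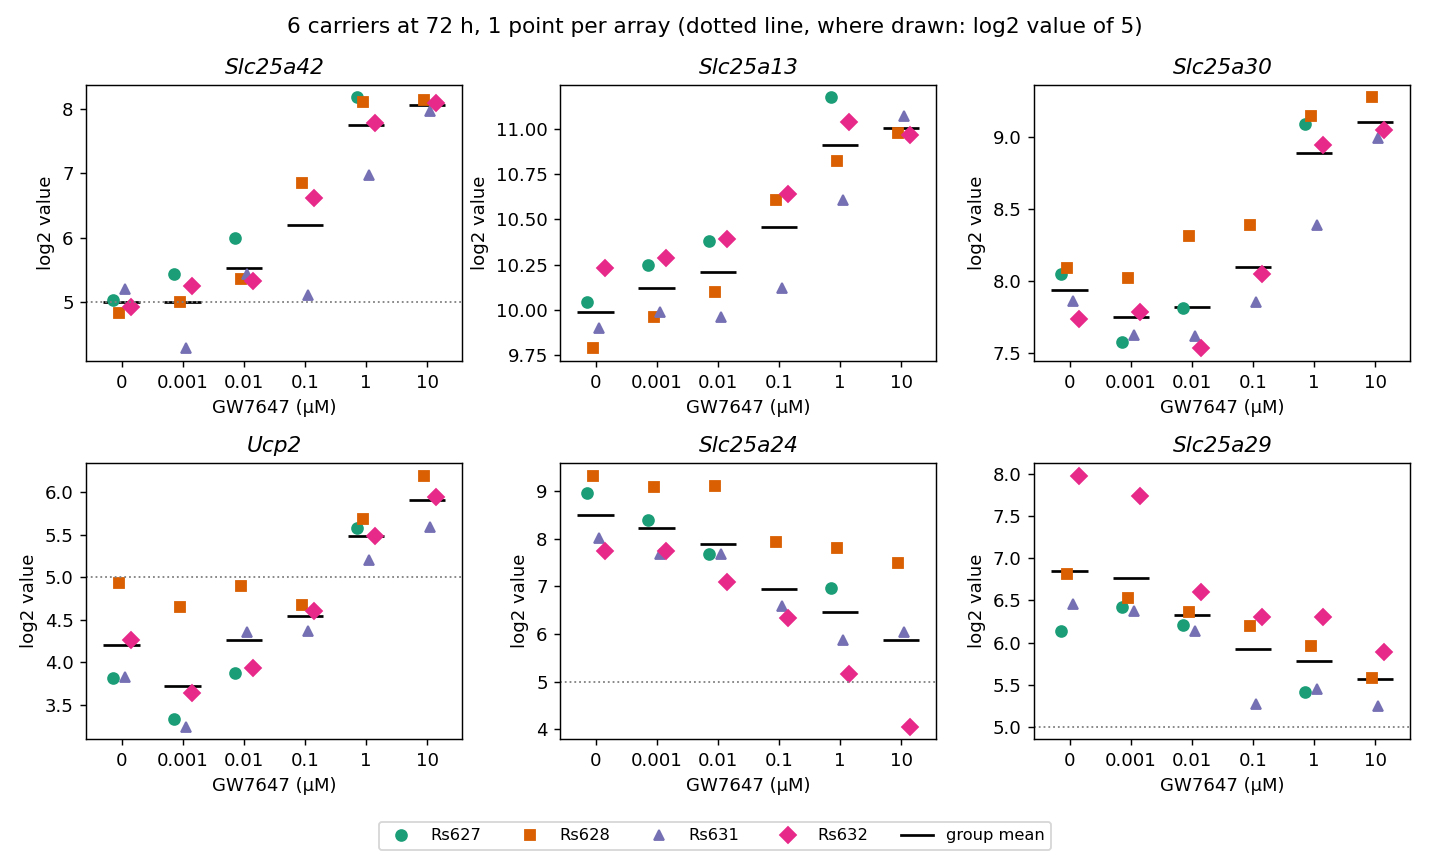
Log2 values of 6 carriers at 72 h (vertical) by GW7647 concentration in µM (horizontal), 1 point per array, coloured by rat, with a line at each group mean. Slc25a42 lies at 6.96 or above in the 1 and 10 µM arrays and at 5.21 or below at 0 µM, and Slc25a24 is spread widely between rats at every concentration.

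Among the uncoupling proteins and their relatives, Slc25a30 rose, Slc25a14 was called lower once, and Ucp2 and Ucp3 are described by their values. Slc25a30, a kidney-enriched relative of the uncoupling proteins, had values of 9.09, 9.15, 8.39 and 8.94 at 1 µM and 72 h, against 8.05, 8.09, 7.86 and 7.74 at 0 µM. The groups did not overlap, and Rs631 was again the lowest treated array. The rise was 1.94-fold (0.96 ± 0.19, limma adjusted p = 3.73e-05). It was 2.22-fold at 24 h and 2.17-fold at 12 h. At 6 h it was 1.58-fold (adjusted p = 0.0380), a call lost when any single rat was left out, at a highest adjusted p of 0.254. At 10 µM and 24 h Slc25a30 rose 2.57-fold (1.36 ± 0.22, adjusted p = 1.26e-06). Its second probe set was above 5 in only 22 of 100 arrays. At 1 µM that probe set rose at 12 h (1.17 ± 0.29, adjusted p = 0.00447) and at 24 h (1.19 ± 0.29, adjusted p = 0.00114). It did not pass at 6 h (0.48 ± 0.265, adjusted p = 0.772) or at 72 h (0.66 ± 0.265, adjusted p = 0.057).

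Ucp2, found in many tissues, passed the filter through 23 arrays above 5, all of cultures with the agent. Because that choice fixes a difference, Ucp2 is described here without a test, and its calls in the counts of carriers are not evidence. At 72 h and 1 µM its values were 5.58, 5.68, 5.20 and 5.49, against 3.81, 4.93, 3.83 and 4.26 at 0 µM. Every treated array was above 5 and none of those at 0 µM was. The 1 µM mean was at least 1.40-fold above 0 µM against the floor of 5. At 10 µM it was at least 1.87-fold above, with values of 6.19 in Rs628, 5.58 in Rs631 and 5.94 in Rs632. At 24 h and 1 µM Ucp2 was at 5.64, 5.94, 4.86 and 4.61, against 4.02 in Rs627, 3.78 in Rs631 and 3.85 in Rs632 at 0 µM. The groups were apart there too, the treated arrays of Rs631 and Rs632 being those of low signal.

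Ucp3, known best from muscle, was above 5 in 10 arrays, all at 1 or 10 µM, and is likewise given without a test. At 72 h and 1 µM its values were 5.67, 5.74, 3.80 and 5.57, against 3.42, 3.75, 3.53 and 3.66 at 0 µM. Of the treated arrays, 3 stood above 5 while Rs631 stood just above the 0 µM range. At 10 µM the values were 6.66 in Rs628, 4.67 in Rs631 and 5.42 in Rs632. Against the floor of 5 the mean was at least 1.41-fold above 0 µM at 1 µM and at least 1.62-fold above it at 10 µM. At 24 h and 1 µM Rs631, an array of low signal, was at 3.23, below the 3.44 of the same rat at 0 µM. A second probe set of Ucp3 was above 5 in no array.

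Slc25a14, another relative that is prominent in brain, went the other way. At 24 h and 1 µM it was at 5.26, 5.40, 4.83 and 4.57, against 5.51 in Rs627, 6.09 in Rs631 and 6.10 in Rs632 at 0 µM. All treated arrays lay lower, and the lowest, Rs631 and Rs632, were those of low signal. The fall of 0.88 on the log2 scale (SE 0.29, limma adjusted p = 0.0164) was lost without these arrays (-0.57, adjusted p = 0.197) and without Rs631 or Rs632 (0.136 and 0.297). At 72 h the change was -0.49 ± 0.27 and did not pass (adjusted p = 0.177).

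**Figure D3:**
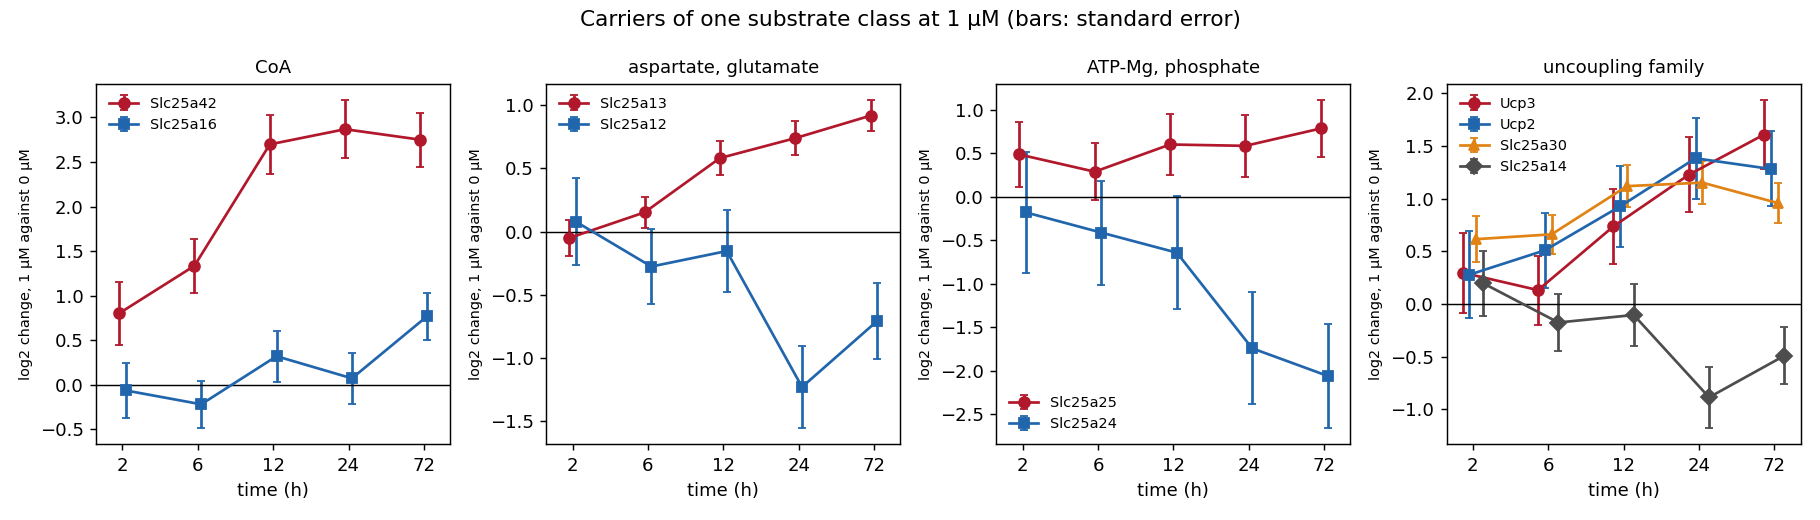
Log2 change at 1 µM against 0 µM (vertical, bars are standard errors) by time in h (horizontal, evenly spaced and not to scale) for carriers of 4 substrate classes. Slc25a13 and Slc25a25 lie above 0 at 72 h and Slc25a12 and Slc25a24 below it.

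The aspartate-glutamate exchangers of the malate-aspartate shuttle, Slc25a13 and Slc25a12, moved in opposite directions. Slc25a13, or citrin, is the liver form and also supplies aspartate to the urea cycle. At 72 h it stood at 11.17, 10.82, 10.61 and 11.04 at 1 µM, against 10.04, 9.79, 9.90 and 10.23 at 0 µM, without overlap. It rose 1.89-fold (0.92 ± 0.12, limma adjusted p = 7.65e-09), and 2.02-fold at 10 µM (1.01 ± 0.13, adjusted p = 3.58e-09). The log2 change was 0.58 ± 0.13 at 12 h, a call lost without Rs631 (0.0625), and 0.74 ± 0.13 at 24 h, and the change at 72 h exceeded that at 2 h by 0.97 ± 0.19 (adjusted p = 0.000165). At 0.1 µM it was 1.47-fold at 24 h and 1.38-fold at 72 h, calls that were lost without Rs627 or Rs631 at 24 h (0.118 and 0.101) and without Rs628 or Rs632 at 72 h (0.228 and 0.124). A second probe set of Slc25a13 rose as well (1.15 ± 0.21 at 1 µM and 72 h, adjusted p = 1.08e-05).

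Slc25a12, or aralar, prevails in brain, heart and muscle. At 24 h it was at 5.41, 5.09, 4.68 and 5.04 at 1 µM, against 5.91 in Rs627, 6.35 in Rs631 and 6.59 in Rs632 at 0 µM. The groups did not overlap, and 1 treated array, Rs631, fell below 5. The fall was at least 2.22-fold against the floor of 5 (-1.23 ± 0.32 as measured, limma adjusted p = 0.00283, and 0.0874 without Rs632). Slc25a12 fell at least 1.87-fold at 10 µM and 24 h (adjusted p = 0.0304), a call lost without the arrays of low signal (-0.71, adjusted p = 0.173) and without Rs628, Rs631 or Rs632 (0.0528, 0.343 and 0.103). At 72 h the change at 1 µM was -0.71 ± 0.30 (adjusted p = 0.0710, and 0.0147 with a term for each rat). The difference between the changes of Slc25a13 and Slc25a12 was not itself tested.

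Slc25a29, a carrier of basic amino acids, fell with Slc25a12. At 72 h its values at 1 µM were 5.41, 5.96, 5.44 and 6.31, against 6.14, 6.82, 6.46 and 7.98 at 0 µM. Each rat was lower at 1 µM, but the treated Rs632 lay above Rs627 at 0 µM, so the groups overlapped. The fall was 2.09-fold (-1.07 ± 0.37, limma adjusted p = 0.0215) and passed neither without Rs628 (0.0866) nor without Rs631 (0.108). At 24 h and 1 µM it was at least 2.88-fold (-1.55 ± 0.39 as measured, adjusted p = 0.00196), with treated values of 5.25, 5.57, 4.89 and 5.10 against 6.44 in Rs627, 6.35 in Rs631 and 7.47 in Rs632 at 0 µM.

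Slc25a22, the glutamate carrier, rose 1.45-fold at 1 µM and 72 h (0.53 ± 0.15, limma adjusted p = 0.00575, and 0.0578 without Rs628). Its values were 8.98, 9.03, 8.95 and 9.43, against 8.43, 8.21, 8.60 and 9.02 at 0 µM. Every rat was higher by itself, while the groups overlapped through Rs632. At 10 µM the rise was 1.66-fold (0.73 ± 0.17, adjusted p = 0.000357).

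Slc25a44, which takes branched-chain amino acids into mitochondria, was at 7.18, 7.30, 6.75 and 7.16 at 1 µM and 72 h, against 6.43, 6.35, 6.87 and 6.67 at 0 µM. It was higher in 3 of 4 rats and lower in Rs631, so that the groups overlapped. The rise was 1.43-fold (0.52 ± 0.18, limma adjusted p = 0.0220) and was lost without Rs627, Rs628 or Rs632 (0.107, 0.185 and 0.0950). At 10 µM and 72 h it rose by 0.61 ± 0.19 (adjusted p = 0.0113, and 0.0764 without Rs628 and 0.174 without Rs632). Its second probe set did not pass at 1 µM (0.28 ± 0.21, adjusted p = 0.355) and passed at 10 µM (0.70 ± 0.22, adjusted p = 0.0140). The ornithine carrier Slc25a15 of the urea cycle and the glycine carrier Slc25a38 were called in none of the 25 comparisons. In all, 3 of 7 amino acid carriers rose and 1 fell at 1 µM and 72 h, with a median change of -0.03, beside 11.3% and 15.5% of all genes and their median of -0.06.

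The calcium-regulated carriers that exchange ATP-Mg for phosphate, Slc25a24, Slc25a25 and Slc25a23, also differed among themselves. Slc25a24 had the largest fall among the 31 at 72 h. At 72 h it stood at 6.97, 7.81, 5.88 and 5.17 at 1 µM, against 8.96, 9.33, 8.01 and 7.75 at 0 µM. Every rat was lower at 1 µM, and the groups overlapped only through Rs628, whose treated value lay just above the lowest at 0 µM. The fall was 4.16-fold (-2.06 ± 0.60, limma adjusted p = 0.00596, lower in 4 of 4 rats). It was lost without Rs627 (0.0558) or Rs631 (0.0522) and had an adjusted p of 5.92e-08 with a term for each rat.

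At 10 µM and 72 h Slc25a24 was at 7.50 in Rs628, 6.05 in Rs631 and 4.05 in Rs632, at least 5.03-fold lower than at 0 µM against the floor of 5 (-2.65 ± 0.65 as measured, limma adjusted p = 0.000871, and 0.0598 without Rs632). The means at 72 h fell along the concentrations, at 8.51 ± 0.75, 8.23 ± 0.66, 7.89 ± 0.86, 6.96 ± 0.86, 6.45 ± 1.17 and 5.87 ± 1.73 from 0 to 10 µM (SD, n = 4, 4, 4, 3, 4 and 3). The 0.1 and 10 µM groups held no array of Rs627, a rat with high Slc25a24, so these means do not hold the same rats. From 1 to 10 µM Rs628 and Rs632 were lower and Rs631 was higher. At 24 h the change was -1.74 ± 0.65 at 1 µM (adjusted p = 0.0340), lost without Rs627, Rs631 or Rs632 (0.0991, 0.205 and 0.339). Without the arrays of low signal it was -0.53 and did not pass (adjusted p = 0.697), the remaining treated arrays being Rs627 at 7.40 and Rs628 at 8.19. Over all cultures Slc25a24 had a median of 8.71 in Rs627 and 9.09 in Rs628, against 7.87 in Rs631 and 7.80 in Rs632.

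Slc25a25 was higher with the agent. At 72 h its values at 1 µM were 6.90, 7.33, 5.91 and 6.95, against 5.80, 6.37, 5.57 and 6.20 at 0 µM. All 4 rats were higher, and the groups overlapped through the low treated value of Rs631. The change of 0.79 ± 0.33 missed the threshold (limma adjusted p = 0.0651) and passed with a term for each rat (0.00199). At 10 µM it passed, at 1.86-fold (0.89 ± 0.35, adjusted p = 0.0493), and was lost without Rs627, Rs628 or Rs632 (0.176, 0.134 and 0.238). Averaged over the times Slc25a25 rose 1.46-fold at 1 µM (0.55 ± 0.16, adjusted p = 0.00351). Slc25a23 was not called with its main probe set at 1 µM averaged over the times (-0.09 ± 0.15), whereas another of its probe sets was lower (-0.47 ± 0.13, adjusted p = 0.00415); the difference between the probe sets was not tested.

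Slc25a3, which imports the phosphate for ATP synthesis, fell by a small amount. At 72 h it was at 11.35, 11.42, 11.55 and 11.38 at 1 µM, against 11.51, 11.67, 11.63 and 11.57 at 0 µM. Only the treated Rs631 reached into the 0 µM range. The fall was 1.12-fold (-0.17 ± 0.06, limma adjusted p = 0.0282), lost without Rs627, Rs628 or Rs632 (0.0607, 0.162 and 0.175) and after centring the arrays on their medians (0.0819). Slc25a3 was also lower at 24 h than at 2 h (-0.25 ± 0.07) and at 72 h than at 2 h (-0.23 ± 0.06, adjusted p = 0.0291) without the agent, and neither call was kept under quantile normalization, median centring or without Rs631 or Rs632 (0.268 and 0.505 at 24 h, 0.184 and 0.422 at 72 h).

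Slc25a4, the adenine nucleotide translocator of heart and muscle, differed between rats and was called with the agent in none of the 25 comparisons. Over all cultures it ranged from 9.88 to 10.92 in the 22 arrays of Rs627 and from 9.68 to 10.94 in the 21 of Rs628, against 7.07 to 8.83 in the 30 of Rs631 and 7.52 to 9.23 in the 27 of Rs632. The ranges of Rs627 and Rs628 did not overlap those of Rs631 and Rs632 under any time or concentration. This was the widest separation among the 31 carriers, with 2.16 on the log2 scale between the highest and lowest rat's mean deviation from the group means. The corresponding distance was 1.51 for Slc25a24, 0.95 for Ucp2 and 0.08 for Slc25a38. The change of Slc25a4 at 1 µM and 72 h was 0.09 ± 0.83, with the largest standard error of the 31. Since the distance between rats enters that error, this fit could miss a sizeable response. The lack of a call is therefore no evidence that Slc25a4 did not respond.

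Of the carriers of di- and tricarboxylates, Slc25a1 and Slc25a11 rose at 1 µM and 72 h. That is 2 of 4, with none lower and a median change of 0.40, beside 11.3% of all genes that rose and a median of -0.06. Slc25a1, which exports citrate for lipid synthesis, was at 9.83, 9.86, 9.83 and 9.54, against 9.39, 9.34, 9.60 and 9.23 at 0 µM. It was higher in every rat, with overlap only through the treated Rs632. It rose 1.30-fold (0.38 ± 0.11, limma adjusted p = 0.00487, and 0.0657 without Rs627). Slc25a11, the oxoglutarate-malate exchanger of the malate-aspartate shuttle, was at 9.05, 8.99, 9.08 and 9.01, against 8.56, 8.45, 8.75 and 8.70 at 0 µM, with no overlap. It rose 1.34-fold (0.42 ± 0.14, adjusted p = 0.0177, and 0.0778 without Rs627 and 0.0779 without Rs632).

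The dicarboxylate carrier Slc25a10 had a change of 0.61 ± 0.26 at 1 µM and 72 h that did not pass (limma adjusted p = 0.0695) and passed with a term for each rat (0.00370). Slc25a21, which carries oxoadipate and oxoglutarate, was called with the agent in no comparison. It was lower at 6 h than at 2 h without the agent (-0.66 ± 0.17, adjusted p = 0.0197), a call lost when any single rat was left out. The values were 5.09, 4.43, 5.03 and 4.74 at 6 h, against 5.74 in Rs627, 5.29 in Rs631 and 5.40 in Rs632 at 2 h.

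Carriers of iron and glutathione were not called at single times, which is no evidence that they did not respond. Slc25a28 and Slc25a37, the mitoferrins, and Slc25a39, a glutathione carrier, were called in none of the 25 comparisons. Slc25a39 was lower at 1 µM averaged over the times (-0.13 ± 0.04, limma adjusted p = 0.00731), which was lost without Rs627 (0.102) or Rs628 (0.0847). Slc25a46, an outer membrane protein without a settled substrate, was called in none of the 25.

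**Figure D4:**
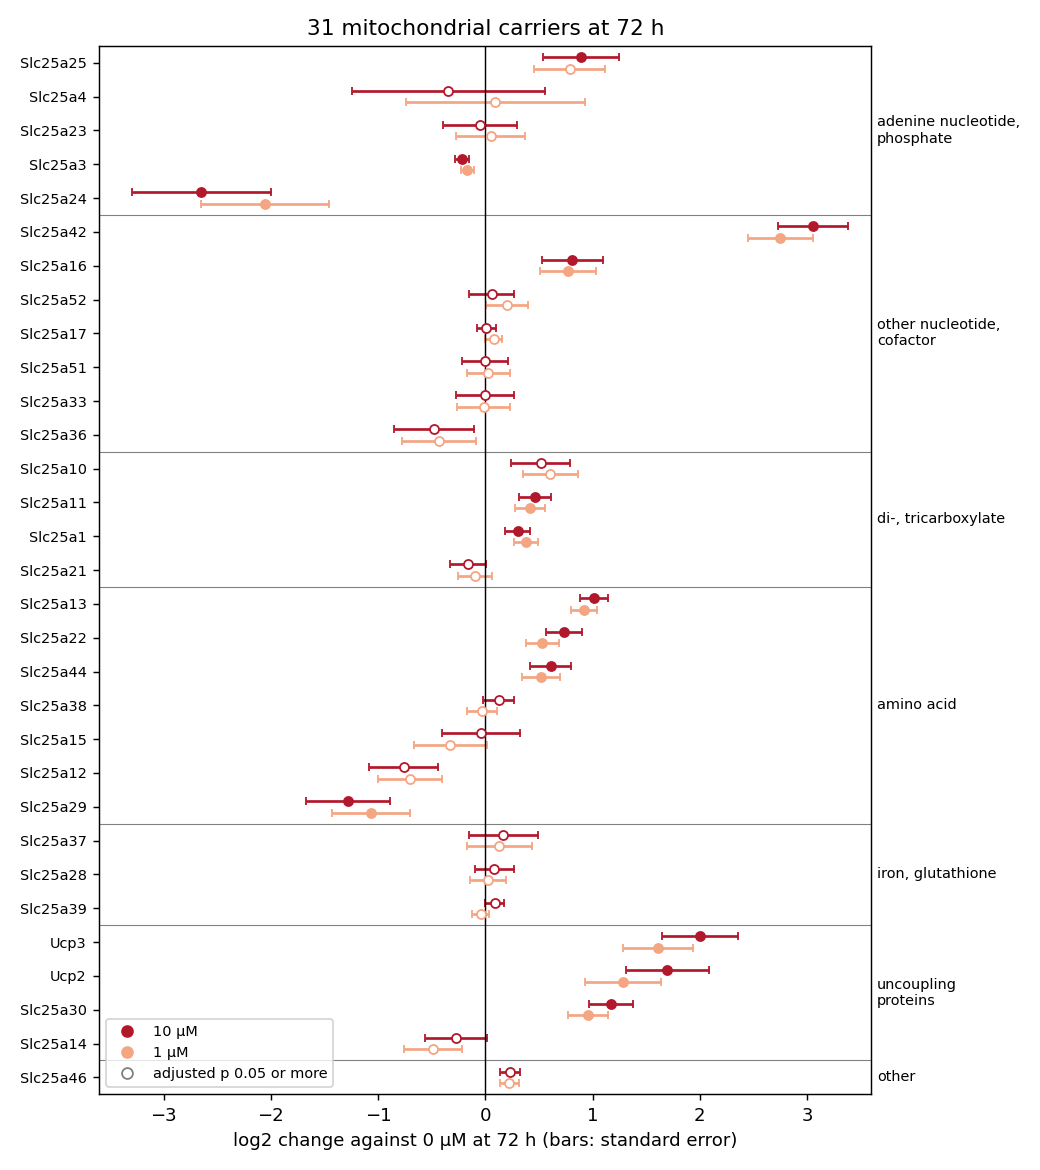
Log2 change at 72 h against 0 µM (horizontal, bars are standard errors) of the 31 carriers (vertical, grouped by substrate) at 10 µM and at 1 µM, with filled points where the adjusted p was below 0.05. At 10 µM 14 points are filled, and at 1 µM 13.

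Without the agent, few carriers were called over the time in culture. Against 2 h, 1 was lower at 6 h, Slc25a21 (1.5% of all genes called), 0 at 12 h (1.79%, 2 at an unadjusted p under 0.05), 1 at 24 h, Slc25a3 (1.41%), and the same 1 at 72 h (3.40%). With a term for each rat the count was 1 at 12 h, Slc25a29 (4.14% of all genes), and 2 at 72 h, Slc25a3 and Slc25a22 (13.0%). The change at 1 µM differed between 72 and 2 h for 2 carriers, Slc25a42 and Slc25a13 (8.66% of all genes), and with a term for each rat for 7 (17.9%), which added Slc25a1, Ucp2 and Ucp3 upward and Slc25a24 and Slc25a29 downward. The filter favoured such a difference for Ucp2 and Ucp3, so their calls here are not evidence of it.

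The largest log2 changes between 72 and 2 h at 0 µM belonged to Slc25a10, Slc25a22, Slc25a29 and Slc25a21. Rs628 had an array at 72 h but none at 2 h, so these group means do not hold the same rats. At 72 h Rs628 was the lowest of the rats for Slc25a10 and Slc25a22. Slc25a10 stood at 6.27, 5.82, 7.05 and 6.79 at 72 h, against 6.77 in Rs627, 7.09 in Rs631 and 7.07 in Rs632 at 2 h (-0.50 ± 0.28, limma adjusted p = 0.323). Each of the 3 rats with both times was lower at 72 h. Slc25a22 stood at 8.43, 8.21, 8.60 and 9.02, against 8.91, 8.97 and 9.08 at 2 h in the same 3 rats (-0.42 ± 0.17, adjusted p = 0.147, and 0.0250 with a term for each rat). Slc25a29 had a change of -0.40 ± 0.39 (adjusted p = 0.615) and Slc25a21 of -0.38 ± 0.17 (adjusted p = 0.200), and the Slc25a21 values of 4.93, 5.11, 5.12 and 5.22 at 72 h all lay below the lowest at 2 h.

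Genes that work beside the carriers were counted in the same fit at 1 µM and 72 h, where 11.3% of all genes rose and 15.5% fell. Of 9 measured enzymes of the malate-aspartate, citrate and glycerol phosphate shuttles 6 rose and none fell. They included Gpd2, the mitochondrial glycerol phosphate dehydrogenase (7.67-fold, limma adjusted p = 5.21e-17), Gpd1, its cytosolic partner (3.75-fold, adjusted p = 1.73e-09), Me1, malic enzyme (3.10-fold, adjusted p = 8.05e-09), and Cs, citrate synthase (1.44-fold, adjusted p = 7.04e-06). The ATP citrate lyase gene Acly, which uses the citrate that Slc25a1 exports, did not pass (-0.28 ± 0.16, adjusted p = 0.209).

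Of 15 other transporters and channels of mitochondria, 2 rose and 4 fell, beside 11.3% and 15.5% of all genes. Mpc2, one subunit of the pyruvate carrier, rose 2.40-fold (1.26 ± 0.09, limma adjusted p = 1.53e-18), whereas its partner Mpc1 fell 1.22-fold (-0.29 ± 0.09, adjusted p = 0.0119, and 0.0893 without Rs628 and 0.0844 without Rs632). Of 12 genes for the import of carrier proteins 3 rose and none fell (all genes 11.3% and 15.5%), led by Timm10b (2.30-fold, adjusted p = 1.80e-15). Of 9 genes of mitochondrial housekeeping 7 rose and none fell (all genes likewise 11.3% and 15.5%), among them Tfam, which packages mitochondrial DNA (1.90-fold, adjusted p = 2.39e-10).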

How the data were processed

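Total RNA of 100 hepatocyte cultures was measured on Affymetrix rat arrays. Each probe set has 1 deposited value per array, a log2 intensity, which was used unscaled. Per the submitters' processing notes, GCRMA and Partek were used, with version, role and order not given. Of 31139 probe sets, 19069 had 1 gene symbol. For arrays, their number limits the precision.

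A linear model with 30 group means was fitted with limma 3.58.1 in R 4.3.3 (70 residual degrees of freedom, two-sided tests, threshold 0.05). Values under 5 were set to 5 for folds written as "at least". Values per array are given for up to 15 carriers called at 1 or 10 µM at 24 or 72 h or averaged over the times, by size of change, for up to 4 with the largest change from 2 to 72 h at 0 µM, and for Slc25a3, Slc25a4 and Slc25a17, chosen after their values were seen. The substrate lists, the members and the tests were chosen with earlier results of these data known. The labels name the rat of each array, and arrays of a rat are paired: after subtracting group means, the median correlation was 0.62 within a rat (lowest rat 0.519) and -0.229 between rats. The subtraction itself lowers the correlation between rats, so that value is no separate measure of pairing. A fit with the rat as a replicate block is one alternative, and the closing section gives the others. Figures were drawn with matplotlib 3.10.9 in Python 3.11.15. The sample titles give a plate position but no plate or date, so values within a batch could not be computed.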

Additional observations from a re-analysis of the deposited data

Results flagged for a closer look

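At 1 µM and 72 h, 1 of 4 arrays stood apart from the other 3 for 3 carriers. The array of Rs631 was low for Ucp3 (3.80), that of Rs632 was high for Slc25a22 (9.43), and that of Rs632 was low for Slc25a1 (9.54). Chance marks about 1 group in 20 in this way. The number of groups examined is not given, so these marks cannot be set against chance. The Slc25a22 and Slc25a1 values come from the same array, that of Rs632. At 72 h and 0 µM Rs632 was also the highest rat for Slc25a22 (9.02) and the lowest for Slc25a1 (9.23). For Ucp3 the lowest at 72 h and 0 µM was Rs627 (3.42), not Rs631. Whether the marks belong to the rat or to its treated array was not tested. For 2 carriers the change at 1 µM differed between 72 and 2 h by the test of the difference itself, by 1.95 for Slc25a42 and by 0.97 for Slc25a13 (limma adjusted p = 0.00260 and 0.000165).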

How the results depend on the processing

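No result of a named carrier changed direction under any of the alternatives. With the rat as a replicate block no named call was lost. The 31 carriers made 61 calls in the 25 comparisons, 100 with the replicate block and 33 to 55 with 1 rat left out (33 without Rs632). With the replicate block the counts were 5 at 1 µM and 12 h, 1 and 14 at 0.01 and 0.1 µM averaged over the times, 2 for 72 against 2 h at 0 µM, and 7 for the difference between 72 and 2 h. The call at 72 against 2 h at 0 µM went to 0 with the compared times alone, under quantile normalization, under median centring and at a minimum of 1.5-fold. Without the filter 1 carrier was called at 1 µM and 6 h. A filter at log2 7, which tests 22 carriers, left 5 at 1 µM and 24 h. Quantile normalization gave 9 at 0.1 µM averaged. At a minimum of 1.5-fold, 8 were called at 1 µM and 72 h, and 1, 6 and 6 at 0.1, 1 and 10 µM averaged. Without the arrays of low signal 1 was called at 0.01 µM averaged. With 1 rat left out the counts were 0 to 1 at 1 µM and 6 h, 5 to 10 at 24 h (5 without Rs632), 6 to 12 at 72 h (6 without Rs627), 4 to 8 at 0.1 µM averaged, 9 to 13 at 1 µM averaged, 0 to 1 for 72 against 2 h at 0 µM, and 1 to 3 for the difference between the times. Of the 100 named carrier results that passed, the number lost was 21 to 42 without 1 rat (42 without Rs632), 36 at a minimum of 1.5-fold, 19 without arrays at repeated plate positions, 9 without those of low signal, 6 under median centring, 6 without the filter, 5 without labels ending in 2, 3 under quantile normalization, 2 with every probe set fitted and 0 with an intensity trend and robust prior. It was 14 of 66 with the compared times alone and 0 of 81 with the filter at log2 7. Leaving out the 12 h arrays of Rs627 and Rs628 at 0 µM left 1 array in that group, so calls lost there are not counted. The cause was not tested. Values near 5 and groups of 2 to 4 arrays limit what can be called. Shares of all genes under these alternatives are given only where stated earlier, so the other counts describe the carriers alone.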
